A study of Mus musculus with 12 samples.

Results

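To find what neuronal loss of NMNAT2 changes in astrocytes whether or not SARM1 is present, the 8 libraries of both mutant genotypes, cKOA and cKOB (4 each), were set together against the 4 libraries of Ctrl-2. These are all 12 libraries of the series, and all 15089 genes in the table of raw counts were tested. In the sample labels, cKOA astrocytes come from mice with both Nmnat2 alleles floxed and 1 Sarm1 null allele, cKOB astrocytes from mice with both Nmnat2 alleles floxed and no working Sarm1 allele, and Ctrl-2 astrocytes from mice with 1 floxed and 1 wild-type Nmnat2 allele and, like cKOA, 1 Sarm1 null allele (the study's methods allow Ctrl-2 mice 0 or 1). Every mouse, Ctrl-2 included, carried 1 copy of Nex-Cre, a driver that recombines floxed alleles in glutamatergic neurons of the forebrain and not in astrocytes, so the Ctrl-2 neurons had lost 1 Nmnat2 allele and the sorted cells themselves were not the cells deleted. The cells were taken from the cortex of untreated mice on postnatal day 16, freed of debris and dead cells and bound to magnetic beads that carry an antibody to the astrocyte antigen ACSA-2, 1 mouse giving 1 library. The labels give no sex.

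NMNAT2 makes NAD in neurons and their axons. When it is lost, the NAD hydrolase SARM1 is switched on and the axon degenerates, and removing SARM1 protects the axon. Astrocytes clear transmitter from synapses, hand metabolites and sterols to neurons, and secrete matrix and growth factors, and they change their transcripts when the neurons around them are injured. A difference from Ctrl-2 that both mutants share would be one that loss of Sarm1 does not undo. A difference between cKOA and cKOB, by contrast, uses no Ctrl-2 library, so the pooled comparison and that between the mutants are separate measurements.

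Total counts ran from 16506627 to 22159404 per library. Nmnat2 (Entrez 226518, chromosome 1, 152955101 to 153119261, mm10) had 20.9, 20.7, 20.3 and 29.4 CPM in cKOA and 42.6, 19.9, 31.2 and 26.5 CPM in cKOB, against 38.7, 35.6, 37.3 and 42.4 CPM in Ctrl-2, where CPM is the count scaled to the TMM-adjusted library total. Of the mutant libraries 7 lay below each Ctrl-2 library and cKOB replicate 15 above them (log2 fold change -0.55, SE 0.16, unadjusted p = 0.00455, adjusted p = 0.102, edgeR's quasi-likelihood test). In the 6 libraries without Xist, a transcript of female cells, its log2 fold change was -0.18 (unadjusted p = 0.286, quasi-likelihood test), and in the 6 with it -0.93. Those 6 hold 1 Ctrl-2 library, replicate 7, which had the highest Nmnat2 of Ctrl-2 (42.4 CPM). Sarm1 had 10.1, 9.27, 9.66 and 6.13 CPM in cKOA and 7.1, 4.82, 5.22 and 7.22 CPM in cKOB, against 12.8, 8.16, 11 and 5.73 CPM in Ctrl-2, and the null allele's missing part is not given, so this count does not check that label. Astrocyte transcripts dominated: the 20 astrocyte markers summed to 36207 to 44264 CPM in cKOA and 27260.2 to 41477 CPM in cKOB, against 40797 to 46240 CPM in Ctrl-2. Other cells were present in every library, with 20 microglia and macrophage markers at 5236 to 10026 CPM in cKOA and 3997 to 6093 CPM in cKOB, against 2839.9 to 5814 CPM in Ctrl-2, and 14 oligodendrocyte markers at 3861 to 12346 CPM over the 12 libraries. Xist itself stood at 1031 to 1385 CPM in 3 of 4 cKOA, 2 of 4 cKOB and 1 of 4 Ctrl-2 libraries and at 0.392 CPM or less in the rest, so the share of libraries with Xist is uneven between the groups. Of the mutant libraries without it, 1 is cKOA (replicate 14) and 2 are cKOB (replicates 15 and 18), so a value in the 6 libraries without Xist also rests mostly on cKOB. In a sorted bulk sample, fewer cells of a type and less RNA per cell cannot be told apart.

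No single gene passed the threshold when both mutants were set against Ctrl-2 over all genes. In the fit of all 12 libraries, edgeR's quasi-likelihood test called 0 genes higher (0%) and 0 lower (0%) at an adjusted p under 0.05, and the smallest adjusted p was 0.0584, shared by 5 genes, with Trpm2, Hspb1 and Klf2 among them on the higher side and Slc13a5 on the lower. At an unadjusted p under 0.05, 1837 genes (12.2%) were higher and 1157 (7.67%) lower. Tests that allow less for uncertainty in the spread made calls on the same counts. With edgeR's likelihood ratio test 621 genes were higher (4.12%) and 206 lower (1.37%), and with DESeq2 734 (4.86%) and 332 (2.2%), whereas limma-voom called 0 and 0. Taken alone against the same Ctrl-2 libraries, cKOA had 890 genes called higher (5.9%) and 208 lower (1.38%) in the quasi-likelihood test, and cKOB 0 (0%) and 0 (0%), with 1025 higher (6.79%) and 735 lower (4.87%) in cKOB at an unadjusted p under 0.05 and 33 (0.219%) and 15 (0.0994%) called by the likelihood ratio test. The quasi-likelihood count rested on single mutant libraries. It was 876 higher and 358 lower without cKOA replicate 14, 324 and 140 without cKOB replicate 18, and 5 and 0 without cKOB replicate 16, while leaving out any of the other 9 gave 0 and 0.

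Genes in which the 2 sides did not overlap at all give a view that does not depend on the spread model. In 137 genes (0.908%) each of the 8 mutant libraries stood above each of the 4 Ctrl-2 libraries, and in 194 genes (1.29%) each stood below. The higher genes had a median pooled log2 fold change of 0.39 (0.45 in cKOA and 0.29 in cKOB, which share the Ctrl-2 libraries), and 117 of the 137 were of like size in both mutants, meaning that the smaller of the 2 fold changes was at least 0.5 of the larger. The lower genes had a median of -0.26 (-0.28 in cKOA and -0.25 in cKOB), and 183 of the 194 were of like size. These are descriptions, since the genes were chosen by the same values. The choice puts both fold changes on the same side of the shared Ctrl-2 libraries, so a high share of like size follows in part from it. No share over all genes stands beside the counts of like size. Over all genes the medians were 0.01 pooled, 0.00 in cKOA and 0.01 in cKOB. The direct comparison of the mutants is the test of whether a shared shift differed in size. It called 0 genes higher (0%) and 0 lower (0%) in cKOA than in cKOB by edgeR's quasi-likelihood test, with 2758 genes (18.3%) at an unadjusted p under 0.05, 1383 with cKOA above cKOB (9.17%) and 1375 below it (9.11%). The likelihood ratio test called 303 higher (2.01%) and 173 lower (1.15%), DESeq2 396 (2.62%) and 229 (1.52%), and the quasi-likelihood test 865 and 812 once cKOA replicate 14 was left out. Of the 137 higher genes, 26 were further from Ctrl-2 in cKOA and 1 in cKOB at an unadjusted p under 0.05, and of the 194 lower genes 10 and 2. The genes described next were picked from these non-overlapping genes after their values were seen, mostly by the smallest pooled p, because no gene was called. The list ordered by p held only genes of like size in both mutants. Close fold changes in cKOA and cKOB among those genes thus follow in part from the choice. For the non-overlapping genes named, adjusted p-values in edgeR's quasi-likelihood test lay between 0.0584 and 0.0944.

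Several non-overlapping genes encode transcription factors or feedback regulators that cells switch on soon after a stimulus. Klf2 (Entrez 16598, chromosome 8, 72319062 to 72321654), a Krüppel-like factor best known for responses to flow and inflammation, had 187, 128, 135 and 110.3 CPM in cKOA and 121, 78.7, 120.4 and 86.9 CPM in cKOB, against 63.7, 63, 55 and 53.2 CPM in Ctrl-2 (log2 fold change 1.02, SE 0.15, unadjusted p = 1.62e-05, adjusted p = 0.0584, edgeR's quasi-likelihood test). The lowest mutant library, cKOB replicate 16, was above the highest Ctrl-2 library. Dusp1, a phosphatase that shuts off MAP kinases, had 483, 295, 339.9 and 194 CPM in cKOA and 227, 205, 302 and 156 CPM in cKOB, against 113, 140.1, 124 and 120.0 CPM in Ctrl-2 (log2 fold change 1.12, SE 0.22). Csrnp1, a nuclear protein of the early response, had 82.1, 58.4, 66.2 and 35.9 CPM in cKOA and 39.5, 32.8, 48.3 and 25.9 CPM in cKOB, against 18.9, 24, 18.5 and 18.9 CPM in Ctrl-2 (log2 fold change 1.23, SE 0.21). In these 3 genes the cKOA mean exceeded that of cKOB, by a log2 difference of 0.46 (95% interval 0.10 to 0.83, unadjusted p = 0.0167, adjusted p = 0.183) in Klf2, 0.56 (95% interval 0.04 to 1.08, unadjusted p = 0.0363, adjusted p = 0.239) in Dusp1 and 0.73 (95% interval 0.24 to 1.22, unadjusted p = 0.00692, adjusted p = 0.157) in Csrnp1 (quasi-likelihood test), none of them past the adjusted threshold. Klf6, a relative of Klf2, behaved alike, with 208 ± 52.6 CPM in cKOA and 156 ± 40.5 CPM in cKOB, against 102 ± 4.97 CPM in Ctrl-2 (SD, n = 4 each). Cebpb, a factor of the acute-phase response, stood at 88.3, 64.3, 84 and 68.5 CPM in cKOA and 75.6, 51.4, 72.7 and 53.3 CPM in cKOB, against 49.8, 44, 34.9 and 30.7 CPM in Ctrl-2 (log2 fold change 0.80, SE 0.15). Rela, the p65 subunit of NF-kappaB, and Mef2d, a factor that responds to activity, showed smaller shifts with no overlap, with log2 fold changes of 0.39 and 0.32. Rassf3, a Ras-association protein, Grasp, a scaffold of glutamate receptors, and Adam15, a membrane metalloprotease, also lay above Ctrl-2 in all 8 libraries, with 0.61, 0.71 and 0.43.

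Per1 and Sik1 had close fold changes in the 2 mutants. Per1 (Entrez 18626, chromosome 11, 69098956 to 69109957), a clock gene that is also induced through cAMP and glucocorticoids, had 381, 326, 298 and 309 CPM in cKOA and 337, 301, 320.5 and 251 CPM in cKOB, against 214, 188, 244 and 203 CPM in Ctrl-2 (log2 fold change 0.57, SE 0.10, unadjusted p = 7.01e-05, adjusted p = 0.0588, edgeR's quasi-likelihood test). Sik1 (Entrez 17691, chromosome 17, 31844250 to 31855792), a kinase induced by cAMP that restrains CREB co-activators, had 91.5, 68.8, 63.3 and 81.6 CPM in cKOA and 89.3, 65.5, 79.1 and 70.4 CPM in cKOB, against 57.1, 48.6, 49.3 and 48.4 CPM in Ctrl-2 (log2 fold change 0.58, SE 0.11). The fold changes of Sik1 were 0.59 in cKOA and 0.58 in cKOB, and the interval of the difference between the mutants ran from -0.26 to 0.27, while that of Per1 ran from -0.12 to 0.36. With Xist as a covariate the pooled log2 fold change was 0.55 for Per1, 0.63 for Sik1, 1.0 for Klf2 and 0.94 for Dusp1, and in the 6 libraries without Xist alone (3 mutant and 3 Ctrl-2) it was 0.47, 0.63, 0.80 and 0.61 in the same order. With the mean of the microglia and macrophage markers as a covariate, Per1 stood at 0.53 and Sik1 at 0.57, while Klf2 was at 0.67 and Dusp1 at 0.51. Csrnp1, Klf6 and Cebpb stood at 0.72, 0.48 and 0.61 in the libraries without Xist.

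Among 22 measured immediate early genes, which also respond to the dissociation of tissue, 21 had a pooled log2 fold change above 0 and 3 did not overlap (0.908% of all genes were higher without overlap), with a median of 0.78 (1.02 in cKOA and 0.55 in cKOB) against 0.01 over all genes. None was called by the quasi-likelihood test, and 18 were higher at an unadjusted p under 0.05 (12.2% of all genes were, and 19.8% in either direction). The likelihood ratio test called 14 higher (4.12% of all genes were). Their summed level was 5118 to 9130.0 CPM in cKOA and 3913 to 6781 CPM in cKOB, against 2568 to 4497 CPM in Ctrl-2. Microglia markers moved with them, as all 20 were above 0 (median 0.73, 1.11 in cKOA and 0.31 in cKOB, 0 of 20 not overlapping). Their part and that of cell dissociation in the early genes were not tested. In the libraries without Xist the median was 0.49 for the early genes and 0.09 for the microglia markers.

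**Figure D1:**
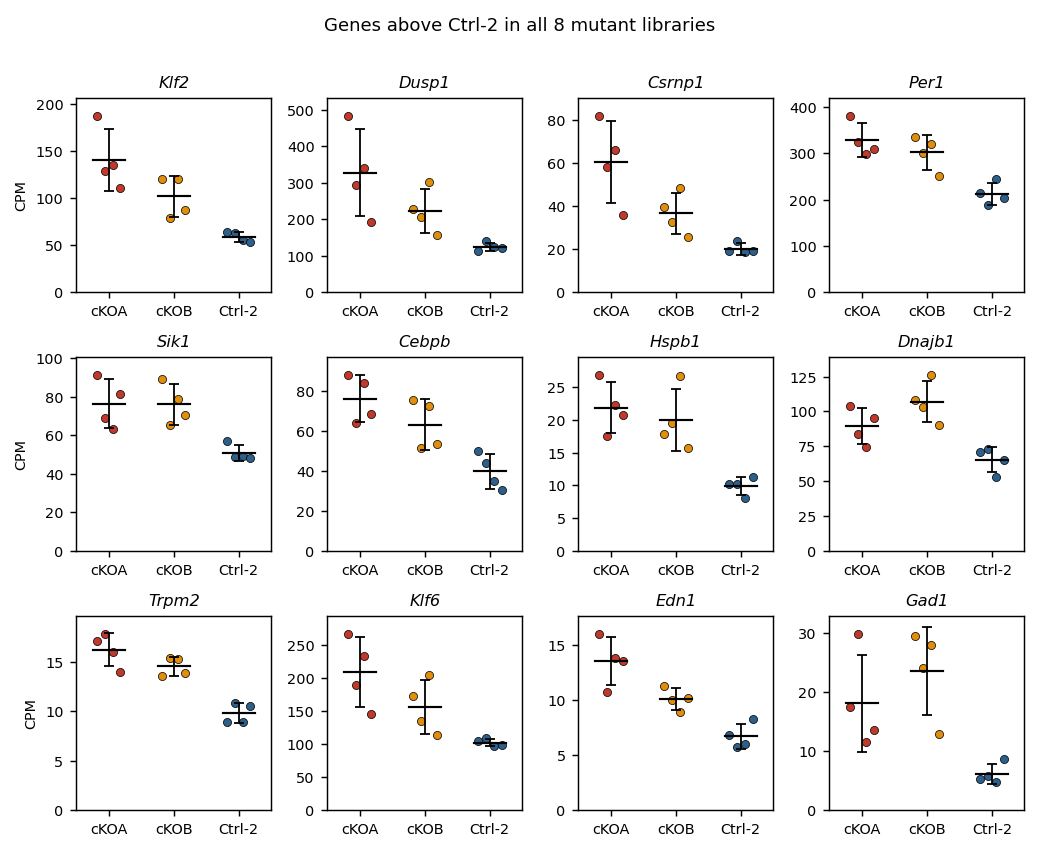
CPM of 12 genes in each library (points), with the mean (line) and SD (bar) of cKOA, cKOB and Ctrl-2 (n = 4 each). In each panel all 8 mutant libraries lie above all 4 Ctrl-2 libraries, as in Sik1, where the mutants run from 63.3 to 91.5 CPM and Ctrl-2 from 48.4 to 57.1 CPM.

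Some heat shock genes lay above Ctrl-2 in cKOA and in cKOB. Hspb1 (Entrez 15507, chromosome 5, 135887919 to 135889563), the small chaperone HSP27, had 26.9, 17.5, 22.2 and 20.7 CPM in cKOA and 17.9, 19.6, 26.7 and 15.7 CPM in cKOB, against 10.3, 10.3, 8.01 and 11.2 CPM in Ctrl-2 (log2 fold change 1.07, SE 0.16, unadjusted p = 1.30e-05, adjusted p = 0.0584, edgeR's quasi-likelihood test). The 2 mutants overlapped each other, with fold changes of 1.13 in cKOA and 1.01 in cKOB and an interval of the difference from -0.24 to 0.50. Dnajb1, the co-chaperone HSP40, had 104, 84, 74.5 and 95.6 CPM in cKOA and 108, 103, 126 and 90.4 CPM in cKOB, against 70.8, 73.1, 52.9 and 65.2 CPM in Ctrl-2 (log2 fold change 0.58, SE 0.11). Its fold changes were 0.45 in cKOA and 0.71 in cKOB, with an interval of the difference from -0.54 to 0.02. In the libraries without Xist the pooled values were 0.92 in Hspb1 and 0.58 in Dnajb1. Hspa1a, an inducible HSP70 whose reads may be shared with its near-identical copy Hspa1b, overlapped because Ctrl-2 replicate 4 stood at 133 CPM while the other Ctrl-2 libraries were at 51.0 to 54.2 CPM and the mutants at 96.7 to 241 CPM. Of 15 chaperone genes measured, 13 were above 0, 6 were higher at an unadjusted p under 0.05 (12.2% of all genes were), 2 did not overlap (0.908% of all) and 0 were called, and the median was 0.09 (0.08 in cKOA and 0.15 in cKOB).

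Trpm2 had the smallest p of all genes. Trpm2 (Entrez 28240, chromosome 10, 77907722 to 77969872) encodes a calcium channel opened by ADP-ribose, a product of NAD cleavage, and by oxidative stress. It had 17.2, 17.9, 16 and 14 CPM in cKOA and 13.6, 15.4, 15.3 and 13.9 CPM in cKOB, against 8.92, 10.9, 8.96 and 10.5 CPM in Ctrl-2 (log2 fold change 0.65, SE 0.09, unadjusted p = 9.92e-06, adjusted p = 0.0584, edgeR's quasi-likelihood test). The gap between the lowest mutant and the highest Ctrl-2 library was larger than the range of either cKOB or Ctrl-2, but smaller than that of cKOA. Its fold changes were 0.73 in cKOA and 0.57 in cKOB, and the interval of the difference between the mutants ran from -0.06 to 0.38. The pooled value was 0.58 with Xist as a covariate, 0.53 in the libraries without Xist and 0.53 with microglia markers as a covariate. Microglia and neurons also express Trpm2.

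The endothelin system stood on both sides of Ctrl-2. Edn1, endothelin 1, a peptide that constricts vessels and acts on astrocytes, had 16.1, 10.7, 13.8 and 13.6 CPM in cKOA and 11.3, 10, 8.9 and 10.2 CPM in cKOB, against 6.77, 5.68, 5.99 and 8.3 CPM in Ctrl-2 (log2 fold change 0.81, SE 0.13), with the cKOA values mostly above those of cKOB. Of the endothelin receptors, Ednrb, the main one of astrocytes, lay below Ctrl-2 in all 8 mutant libraries, at 412, 485, 581 and 505 CPM in cKOA and 401, 474, 448 and 553 CPM in cKOB, against 659, 702, 811 and 683 CPM in Ctrl-2 (log2 fold change -0.57, SE 0.10, unadjusted p = 1.09e-04, adjusted p = 0.0649, edgeR's quasi-likelihood test). Ednra, the receptor of mural cells and fibroblasts, was lower in 7 of 8, at 23.8 ± 3.95 CPM in cKOA and 27.5 ± 4.48 CPM in cKOB, against 33.5 ± 1.44 CPM in Ctrl-2 (SD, n = 4 each). Edn1 was at 0.92 and Ednrb at -0.58 in the libraries without Xist. Ligand and astrocyte receptor thus stood on opposite sides of Ctrl-2 in every mutant library. Of 13 endothelial markers 12 were above 0, 3 were higher at an unadjusted p under 0.05 (12.2% of all genes were) and 0 did not overlap. Their median was 0.17, and 0.52 in the libraries without Xist. The part of endothelial cells in Edn1 was not tested.

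Of the genes of inhibitory neurons looked at, which were picked after their values were seen, Gad1 and Tac1 did not overlap and the others did. Gad1 (Entrez 14415, chromosome 2, 70562164 to 70602012), which encodes an enzyme that makes GABA, had 17.5, 29.9, 11.5 and 13.6 CPM in cKOA and 29.4, 24.1, 27.9 and 12.8 CPM in cKOB, against 5.2, 5.68, 4.7 and 8.54 CPM in Ctrl-2 (log2 fold change 1.77, SE 0.30, unadjusted p = 5.51e-05, adjusted p = 0.0585, edgeR's quasi-likelihood test). The fold change was the largest among the non-overlapping genes described here, and it was 1.58 in cKOA and 1.96 in cKOB (1.84 pooled in the libraries without Xist). Gad2, the other GABA enzyme, and Slc32a1, the vesicular GABA transporter, had pooled log2 fold changes of 1.32 and 1.64 and stood above each Ctrl-2 library in 7 of 8 mutant libraries. Slc32a1 was at 4.99 ± 1.82 CPM in cKOA and 6.34 ± 1.97 CPM in cKOB, against 1.79 ± 1.01 CPM in Ctrl-2 (SD, n = 4 each). Tac1, the precursor of substance P, was higher in all 8 libraries at low levels, with 1.17, 2.35, 1.14 and 1.49 CPM in cKOA and 1.21, 1.32, 1.54 and 0.939 CPM in cKOB, against 0.429, 0.143, 0.784 and 0.583 CPM in Ctrl-2. Sst, somatostatin, overlapped, with 3.04 ± 1.68 CPM in cKOA and 5.14 ± 2.61 CPM in cKOB, against 1.74 ± 1 CPM in Ctrl-2 (SD, n = 4 each), and Npy had a log2 fold change of 0.78. Nex-Cre does not act in GABAergic neurons. The 17 neuron markers, which include Gad1, Gad2 and Slc32a1, had a median of 0.30, 0.01 in cKOA and 0.89 in cKOB, and 9 of them were higher in cKOB than in cKOA at an unadjusted p under 0.05 (9.11% of all genes were). In the pooled comparison 14 were above 0, 6 were higher (12.2% of all genes were) and 1 lower (7.67% of all) at an unadjusted p under 0.05 and 0 were called, and their summed level was 474 to 647 CPM in cKOA and 601 to 763 CPM in cKOB, against 502 to 701 CPM in Ctrl-2, which overlap. Their median was 1.37 in the libraries without Xist. What part neuronal RNA in the sort has in these values was not tested.

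To show where a shared regulatory sequence could be looked for, the 250 bases before the first start listed by RefSeq (GRCm38.p6) were searched in 106 of the 137 higher genes, 153 of the 194 lower genes and 11297 of the 15089 genes tested, on both strands. The core of the cAMP response element, TGACG, was present in 44.3% of the promoters of higher genes, 23.5% of those of lower genes and 26.2% of all. Its full palindrome, TGACGTCA, which contains the core, was in 3.77%, 1.96% and 2.74% in the same order. Median G and C content was 62.2% in the promoters of higher genes, 61.6% in those of lower genes and 60.0% in all, and the median number of CG dinucleotides was 17, 17 and 15. Dusp1 is shown for the palindrome, Cebpb for 3 copies of the core, Trpm2 as the gene of smallest p and Tac1 as a neuropeptide gene, each 5′ to 3′ in the direction of transcription with the core on either strand in capitals.
Dusp1 (chr17:26508473-26508722, minus strand): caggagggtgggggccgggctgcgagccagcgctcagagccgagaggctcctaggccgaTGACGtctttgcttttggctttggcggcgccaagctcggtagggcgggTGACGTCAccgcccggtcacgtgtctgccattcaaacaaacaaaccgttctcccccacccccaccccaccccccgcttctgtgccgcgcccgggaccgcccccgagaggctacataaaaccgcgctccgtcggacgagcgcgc
Cebpb (chr2:167688665-167688914, plus strand): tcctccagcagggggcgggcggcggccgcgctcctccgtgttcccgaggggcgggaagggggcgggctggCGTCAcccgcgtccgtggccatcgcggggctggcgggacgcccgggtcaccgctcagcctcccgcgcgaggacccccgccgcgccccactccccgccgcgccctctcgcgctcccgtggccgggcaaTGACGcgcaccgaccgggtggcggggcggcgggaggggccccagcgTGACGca
Trpm2 (chr10:77969873-77970122, minus strand): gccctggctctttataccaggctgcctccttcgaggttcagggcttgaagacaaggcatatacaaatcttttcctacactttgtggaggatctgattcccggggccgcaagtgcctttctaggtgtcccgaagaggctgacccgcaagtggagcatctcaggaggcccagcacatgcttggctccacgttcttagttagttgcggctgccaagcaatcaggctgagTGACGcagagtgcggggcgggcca
Tac1 (chr6:7554811-7555060, plus strand): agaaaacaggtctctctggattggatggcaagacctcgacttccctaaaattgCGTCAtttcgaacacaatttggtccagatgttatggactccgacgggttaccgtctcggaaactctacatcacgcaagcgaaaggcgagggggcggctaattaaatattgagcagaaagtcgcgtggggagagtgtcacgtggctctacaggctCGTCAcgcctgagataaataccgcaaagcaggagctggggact
In Dusp1 the core starts 191, 143 and 140 bases before the start site, the last 2 being both strands of the palindrome. In Trpm2 it starts 24 bases before it. Of the other 8 motifs searched, CCACCC (KLF factors) was in 43.4% of the promoters of higher genes, 29.4% of those of lower genes and 33.3% of all, and CCAAT (NF-Y) in 36.8%, 43.1% and 36.0%. The ETS motif CCGGAA stood at 17%, 26.1% and 20.7%, and the NF-kappaB motif at 26.4%, 26.1% and 22.7%. TGANTCA of AP-1 (2.83%, 1.96% and 4.24%), TCACNCCAC of SREBP (0%, 0% and 0.938%) and the heat shock element of 3 alternating units in either phase (0%, 0% and 0.310%) were rare. A match is a description of these letters and not a bound site, and the choice of TGACG followed from its share.

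Among the lower genes without overlap were a growth factor and its receptor. Ptn (Entrez 19242, chromosome 6, 36715663 to 36811361), pleiotrophin, a secreted growth factor that supports neurites, had 749, 789, 852 and 928 CPM in cKOA and 849, 951, 926 and 1132 CPM in cKOB, against 1196, 1222, 1329.8 and 1215 CPM in Ctrl-2 (log2 fold change -0.47, SE 0.09, unadjusted p = 1.16e-04, adjusted p = 0.0649, edgeR's quasi-likelihood test). Its receptor gene Ptprz1 (Entrez 19283, chromosome 6, 22875502 to 23052916), a receptor phosphatase of astrocytes and their precursors, had 1397, 1598, 1688 and 1910.3 CPM in cKOA and 1698, 1768, 1721 and 2246 CPM in cKOB, against 2399, 2665, 2849 and 2482 CPM in Ctrl-2 (log2 fold change -0.57, SE 0.10, unadjusted p = 1.08e-04, adjusted p = 0.0649, edgeR's quasi-likelihood test). Ligand and receptor were thus both below Ctrl-2 in every mutant library, with cKOB replicate 18 nearest to Ctrl-2 in each. Tnc, tenascin C, a matrix protein that also binds this receptor, was at 43.5, 40.2, 38.7 and 58.7 CPM in cKOA and 65.7, 57.9, 59.7 and 89.3 CPM in cKOB, against 87.2, 102, 114 and 91.7 CPM in Ctrl-2 (log2 fold change -0.83, SE 0.13). There cKOB replicate 18 overlapped with Ctrl-2, and the fold was larger in cKOA by a log2 difference of -0.59 (95% interval -0.93 to -0.25, unadjusted p = 0.00253, adjusted p = 0.153) (quasi-likelihood test). Hapln1, which links hyaluronan to proteoglycans, had 152, 191, 211 and 184 CPM in cKOA and 153, 180.4, 161 and 239.7 CPM in cKOB, against 229, 296, 294 and 289 CPM in Ctrl-2, with fold changes of -0.59 in cKOA and -0.59 in cKOB. Fabp7, which binds fatty acids in immature astrocytes, had 98.7 ± 13.4 CPM in cKOA and 127 ± 18.7 CPM in cKOB, against 171 ± 30.7 CPM in Ctrl-2 (SD, n = 4 each). In the libraries without Xist the pooled values were -0.37 in Ptn, -0.44 in Ptprz1, -0.51 in Tnc, -0.51 in Hapln1 and -0.41 in Fabp7. Of 19 matrix and perineuronal genes 16 were below 0, 7 were lower at an unadjusted p under 0.05 (7.67% of all genes were), 2 did not overlap (1.29% of all) and 0 were called (median -0.16). Of 20 genes of immature astrocytes 16 were below 0, 7 at an unadjusted p under 0.05, 2 did not overlap and 0 were called (median -0.15).

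**Figure D2:**
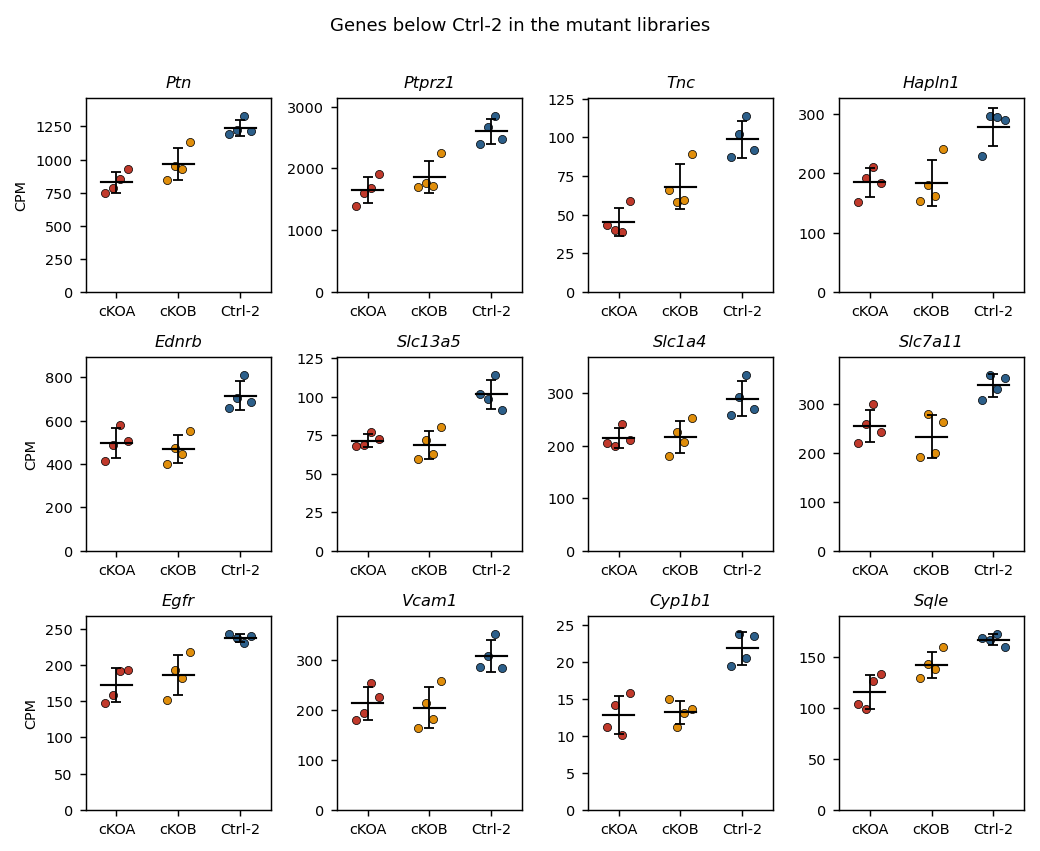
CPM of 12 genes in each library (points), with the mean (line) and SD (bar) of cKOA, cKOB and Ctrl-2 (n = 4 each). All 8 mutant libraries lie below all 4 Ctrl-2 libraries in 10 of the panels, and in Tnc and Hapln1 cKOB replicate 18 reaches the Ctrl-2 range.

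Several transporter and receptor genes of astrocytes were among the lower genes without overlap. Slc13a5 (Entrez 237831, chromosome 11, 72241994 to 72266604), a carrier that takes up citrate, had 68.1, 68.7, 76.8 and 72.2 CPM in cKOA and 59.4, 71.8, 63.1 and 80.3 CPM in cKOB, against 102, 98.4, 114 and 91.3 CPM in Ctrl-2 (log2 fold change -0.53, SE 0.08, unadjusted p = 1.94e-05, adjusted p = 0.0584, edgeR's quasi-likelihood test). Its fold changes were -0.50 in cKOA and -0.56 in cKOB, and the interval of the difference between the mutants ran from -0.15 to 0.27. Slc1a4, which carries serine and alanine, had 205, 199, 243 and 211 CPM in cKOA and 181, 227, 207 and 253 CPM in cKOB, against 259, 292, 335 and 271 CPM in Ctrl-2 (log2 fold change -0.42, SE 0.09). Slc7a11, the cystine-glutamate exchanger, had 221, 259.5, 300.3 and 243 CPM in cKOA and 192, 279.6, 201 and 264 CPM in cKOB, against 308, 361, 332 and 355 CPM in Ctrl-2 (log2 fold change -0.47, SE 0.11). The pooled values of these 3 were -0.51, -0.42 and -0.50 with Xist as a covariate and -0.48, -0.39 and -0.44 with microglia markers as a covariate, and in the libraries without Xist they were -0.57, -0.46 and -0.52. Gabrg1, a GABA receptor subunit, and Adora2b, an adenosine receptor, were lower in all 8 libraries as well, with log2 fold changes of -0.37 and -0.35. Slc1a2, the main glutamate transporter, was below Ctrl-2 in 7 of 8 mutant libraries, with 12994 ± 1613 CPM in cKOA and 12198 ± 3206 CPM in cKOB, against 15789 ± 631 CPM in Ctrl-2 (SD, n = 4 each, log2 fold change -0.33). Of 18 genes of glutamate and GABA handling 16 were below 0, 7 were lower at an unadjusted p under 0.05 (7.67% of all genes were), 3 did not overlap (1.29% of all) and 0 were called (median -0.18, -0.15 in cKOA and -0.25 in cKOB). Over the 20 astrocyte markers, 17 were below 0, 5 were lower at an unadjusted p under 0.05 and 1 did not overlap (median -0.11, -0.02 in cKOA and -0.22 in cKOB). Their median was -0.19 with Xist as a covariate and -0.29 in the libraries without Xist. The marker list thus moved the same way, and its part in the transporters was not tested.

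Of the gap junction genes, Gjb2, connexin 26, had 28.7, 29.2, 28.4 and 36.9 CPM in cKOA and 22.4, 24.1, 24.5 and 28.4 CPM in cKOB, against 34.8, 43.8, 42.9 and 41.8 CPM in Ctrl-2 (log2 fold change -0.56, SE 0.09), with cKOA replicate 14 inside the Ctrl-2 range. It was lower in cKOB than in cKOA, by a log2 difference of 0.31 (95% interval 0.08 to 0.54, unadjusted p = 0.0135, adjusted p = 0.175) (quasi-likelihood test). Gjb6, connexin 30, which lies beside it on chromosome 14, was below each Ctrl-2 library in 4 of 8 mutant libraries, with 277 ± 41.3 CPM in cKOA and 226 ± 47.7 CPM in cKOB, against 276 ± 26.4 CPM in Ctrl-2 (SD, n = 4 each, log2 fold change -0.14). Of 19 genes of potassium, water and junctions 17 were below 0 and 7 were lower at an unadjusted p under 0.05 (7.67% of all genes were), with 0 not overlapping and 0 called.

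Another 7 genes below Ctrl-2 in all 8 libraries, picked after their values were seen and forming no fixed list, act in growth factor signalling or adhesion. Hbegf, a ligand of the EGF receptor, had 41.5 ± 2.99 CPM in cKOA and 42.6 ± 4.48 CPM in cKOB, against 55.2 ± 3.38 CPM in Ctrl-2 (SD, n = 4 each), and Egfr, the receptor, 147, 158, 191 and 193 CPM in cKOA and 152, 193, 182 and 217 CPM in cKOB, against 243, 237, 230.1 and 239 CPM in Ctrl-2 (log2 fold change -0.41, SE 0.09). The Ctrl-2 values of Egfr were tight, and the highest mutant library, cKOB replicate 18, was at 217 CPM. Bmpr1a, a receptor of bone morphogenetic proteins, and Nrarp, a feedback inhibitor of Notch, had log2 fold changes of -0.32 and -0.32. Vcam1, an adhesion molecule that astrocytes also make, had 179, 193, 254 and 226 CPM in cKOA and 164, 213, 181 and 258 CPM in cKOB, against 286, 309, 353 and 283 CPM in Ctrl-2 (log2 fold change -0.56, SE 0.12). Alcam and Cdh2 (N-cadherin), further adhesion molecules, had log2 fold changes of -0.35 and -0.28. In these 7 genes the intervals of the difference between the mutants all contained 0, the widest being -0.25 to 0.37 in Vcam1.

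Some lower genes are better known from cells of the vessel wall and meninges. Cyp1b1 (Entrez 13078, chromosome 17, 79706953 to 79715041), a cytochrome P450 found in vascular cells, had 11.2, 14.1, 10.1 and 15.8 CPM in cKOA and 15, 11.2, 13.1 and 13.6 CPM in cKOB, against 19.5, 23.9, 20.5 and 23.6 CPM in Ctrl-2 (log2 fold change -0.75, SE 0.12, unadjusted p = 2.90e-05, adjusted p = 0.0585, edgeR's quasi-likelihood test). Its fold changes were -0.77 in cKOA and -0.73 in cKOB. Tfap2b and Tbx18, transcription factors of meningeal and mural cells, had log2 fold changes of -1.22 and -0.80, and Tfap2b was near the limit of the counts, at 0.488 to 1.09 CPM in the mutants and 1.40 to 2.15 CPM in Ctrl-2. Col4a5, a basement membrane collagen, and Fstl1, a secreted glycoprotein, were at -0.55 and -0.51, and in both the mutant library nearest to Ctrl-2 was cKOA replicate 14 or cKOB replicate 18. Markers of mural cells and fibroblasts lay on the same side. Of 13 markers 11 were below 0, 6 were lower at an unadjusted p under 0.05 (7.67% of all genes were), 0 did not overlap and 0 were called, and their summed level was 673 to 1286 CPM in cKOA and 801 to 1284 CPM in cKOB, against 1193 to 1344 CPM in Ctrl-2. In the libraries without Xist the median of that list was 0.01 and the log2 fold changes were -0.53 in Cyp1b1, -0.31 in Tbx18, -0.28 in Col4a5 and -0.27 in Fstl1. The part of these cells in the values was not tested.

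All 21 measured genes of cholesterol synthesis had a pooled log2 fold change below 0, 13 at an unadjusted p under 0.05 (7.67% of all genes were lower), and 4 did not overlap (1.29% of all), Msmo1, Sc5d and Sqle among them, with 0 called (median -0.27, -0.46 in cKOA and -0.11 in cKOB). Sqle, squalene epoxidase, had 104, 99.1, 126 and 133 CPM in cKOA and 129, 143, 138 and 159.6 CPM in cKOB, against 168, 166, 173 and 159.7 CPM in Ctrl-2 (log2 fold change -0.38, SE 0.08). Sc5d, a desaturase late in the pathway, was at 61.2 ± 9.19 CPM in cKOA and 73.1 ± 5.98 CPM in cKOB, against 88 ± 4.69 CPM in Ctrl-2 (SD, n = 4 each). The log2 difference between the mutants was -0.30 (95% interval -0.51 to -0.09, unadjusted p = 0.0079, adjusted p = 0.158) in Sqle and -0.26 (95% interval -0.47 to -0.04, unadjusted p = 0.0221, adjusted p = 0.199) in Sc5d (quasi-likelihood test), and in 15 of the 21 genes cKOA was below cKOB at an unadjusted p under 0.05 (9.11% of all genes were). Msmo1, a demethylating oxidase of the pathway, was of like size in both, with -0.46 in cKOA and -0.33 in cKOB and 225, 229.9, 297 and 244 CPM in cKOA and 228, 311, 259.8 and 292 CPM in cKOB, against 324, 335, 364 and 348 CPM in Ctrl-2. Elovl5, which elongates polyunsaturated fatty acids, had fold changes of -0.37 in cKOA and -0.39 in cKOB. The median of the sterol genes was -0.24 in the libraries without Xist. Oligodendrocytes also make sterols, and their 14 markers had a median of -0.29 (-0.63 in cKOA and 0.08 in cKOB), with 0 not overlapping. Their part in the sterol genes was not tested.

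Genes of cell death and inflammation were furthest from Ctrl-2 in the 3 cKOA libraries with Xist. Pmaip1, the cell death factor NOXA, had 36.5, 27.2, 35.7 and 15.3 CPM in cKOA and 14.7, 13.1, 17.1 and 11 CPM in cKOB, against 7.97, 10.6, 6.77 and 7.18 CPM in Ctrl-2 (log2 fold change 1.30, SE 0.23, unadjusted p = 6.98e-05, adjusted p = 0.0588, edgeR's quasi-likelihood test). All 8 mutant libraries were above Ctrl-2, but cKOA exceeded cKOB by a log2 difference of 1.04 (95% interval 0.51 to 1.56, unadjusted p = 9.14e-04, adjusted p = 0.153) (quasi-likelihood test). Cdkn1a, the cell cycle inhibitor p21, had fold changes of 0.94 in cKOA and 0.33 in cKOB, and Ptk2b, a kinase of calcium signalling, of 1.40 in cKOA and 0.56 in cKOB. Ccl3, a chemokine of microglia, overlapped, with 204, 207, 282 and 87.5 CPM in cKOA and 76.9, 51.6, 98.9 and 55.9 CPM in cKOB, against 29.3, 67.3, 36.1 and 40.3 CPM in Ctrl-2, and cKOA exceeded cKOB by 1.46 (95% interval 0.73 to 2.19, unadjusted p = 8.22e-04, adjusted p = 0.153) (quasi-likelihood test). Ccrl2 and Nfkbia, a chemokine-binding receptor and an inhibitor of NF-kappaB, had fold changes of 1.98 in cKOA and 0.60 in cKOB for the first and 1.80 in cKOA and 0.84 in cKOB for the second. The MHC gene H2-Q4 had no overlap, with 40, 31.1, 34.4 and 11.4 CPM in cKOA and 20.4, 19.3, 24.5 and 10.6 CPM in cKOB, against 9.4, 9.88, 8.01 and 9.13 CPM in Ctrl-2, though reads of this family may be split among near-identical members. Lists of immune genes stood apart between the mutants in the same way. The median was 1.16 for 16 chemokine genes (1.82 in cKOA and 0.57 in cKOB), 0.73 for 24 interferon-stimulated genes (1.31 and 0.17 in the same order), 0.76 for 12 MHC class I genes (1.23 and 0.34) and 0.73 for 19 genes of disease-associated microglia (1.21 and 0.10). In the direct comparison of the mutants cKOA was higher at an unadjusted p under 0.05 in 9, 20, 11 and 17 of these (9.17% of all genes were). The cKOA library replicate 14 stood apart from the other 3 cKOA libraries and within the Ctrl-2 range in 3 of the lists. The interferon-stimulated genes summed to 261 CPM there, against 480 to 828 CPM in the other cKOA libraries and 229 to 283 CPM in Ctrl-2, and the MHC class I genes to 439 CPM, against 759 to 1022 CPM in the other cKOA libraries and 319.5 to 450.0 CPM in Ctrl-2. The disease-associated microglia genes stood at 8288 CPM there and 7582 to 9209 CPM in Ctrl-2. In the libraries without Xist the medians were 0.48 for the chemokine, 0.05 for the interferon-stimulated, 0.11 for the MHC class I and 0.04 for the disease-associated microglia genes, and Pmaip1 was at 0.69 and Ccl3 at 0.73. The quasi-likelihood test called no gene of these 4 lists in the pooled comparison or between the mutants. Libraries did not overlap in 1 of the 24 interferon-stimulated and 1 of the 12 MHC class I genes (0.908% of all genes were higher without overlap). C1qa, a complement gene of microglia, was at 436 ± 138 CPM in cKOA and 239.7 ± 40.1 CPM in cKOB, against 185 ± 54.7 CPM in Ctrl-2 (SD, n = 4 each), and 19 of the 20 microglia markers were higher in cKOA than in cKOB at an unadjusted p under 0.05 (9.17% of all genes were). The part of microglia in these genes was not tested.

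**Figure D3:**
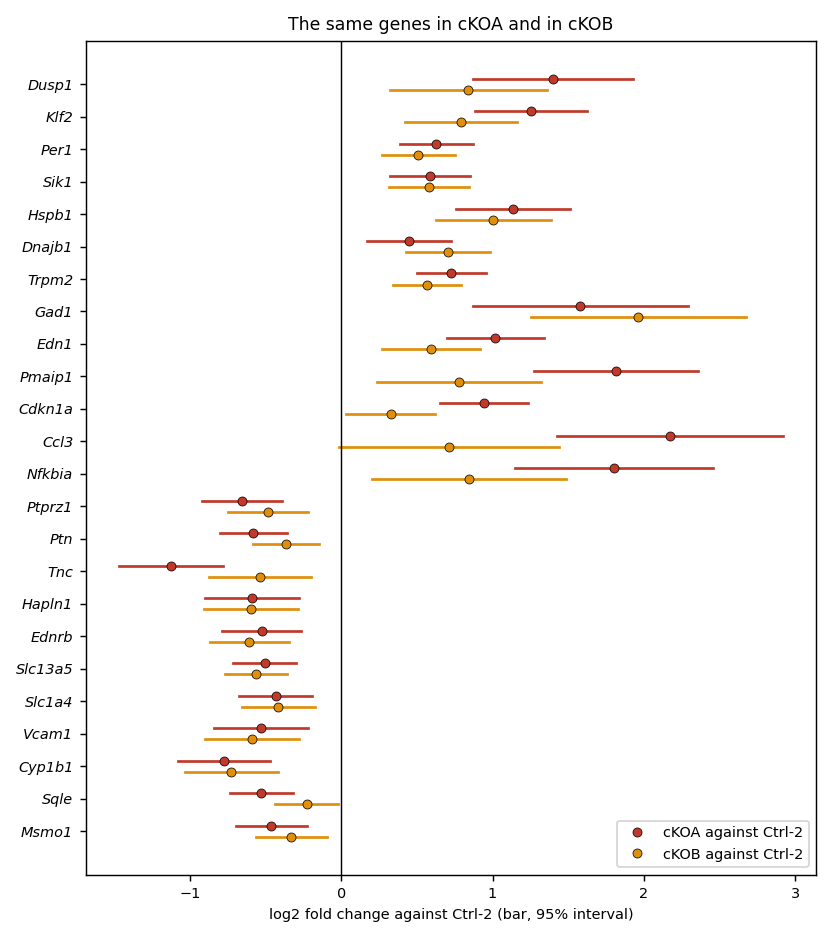
Log2 fold change of 24 genes in cKOA and in cKOB against the same 4 Ctrl-2 libraries, with 95% intervals of edgeR's fit. Sik1, Hapln1, Slc13a5 and Cyp1b1 stand at almost the same place in both, and Ccl3, Pmaip1, Cdkn1a and Sqle lie further from 0 in cKOA. Sik1, Slc13a5 and Cyp1b1 come from a list that held only genes of like size in both mutants.

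**Figure D4:**
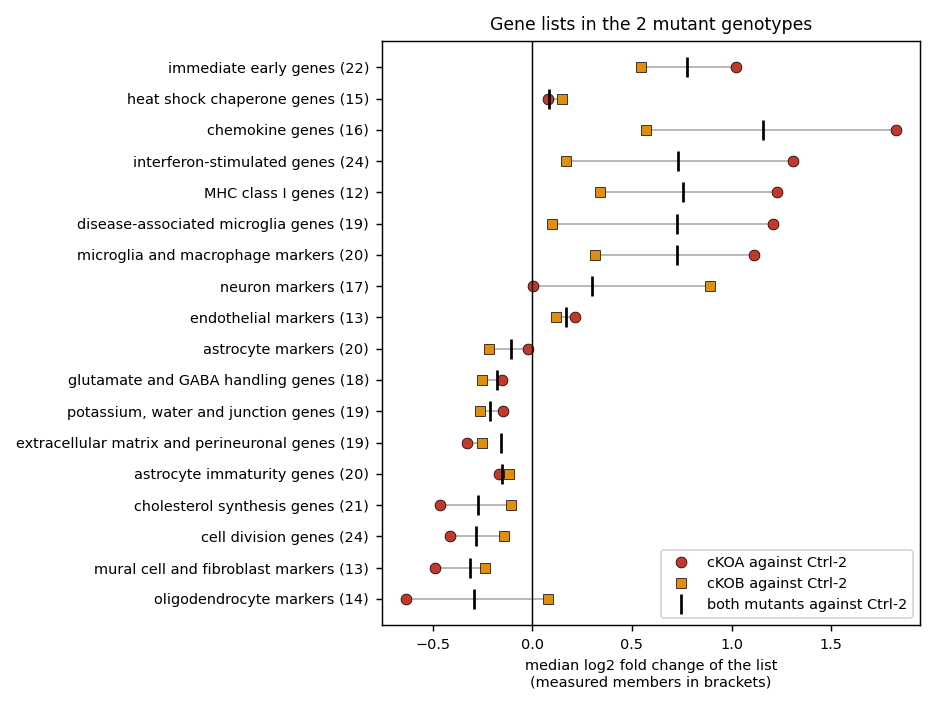
Median log2 fold change of 18 gene lists in cKOA and cKOB against Ctrl-2 and in the pooled comparison, with the number of measured genes in brackets. The astrocyte transporter and matrix lists are below 0 in both mutants, while the chemokine, interferon and microglia lists are further above 0 in cKOA, and neuron markers are above 0 mainly in cKOB.

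How far the shared shifts moved with other measures of the libraries was read from the 331 non-overlapping genes. With Xist as a covariate the median was 0.35 for the 137 higher genes and -0.25 for the 194 lower ones. With the mean of the microglia and macrophage markers as a covariate the medians were 0.23 and -0.22, with that of the oligodendrocyte markers 0.36 and -0.25, and with that of the immediate early genes 0.23 and -0.18. In the 6 libraries without Xist they were 0.26 and -0.23. Without cKOA replicate 14, 98 of the 137 and 112 of the 194 passed the quasi-likelihood test over all genes, and without cKOB replicate 18, 63 and 58. With each covariate, and in the libraries without Xist, 0 and 0 passed. At an unadjusted p under 0.05 the main fit had 136 and 190. That count was 131 and 184 with the Xist covariate, 64 and 96 with the microglia and macrophage markers and 134 and 187 with the oligodendrocyte markers. It was 40 and 43 with the immediate early genes as a covariate, and 72 and 113 in the libraries without Xist. These covariates were measured in the same libraries and differ between the groups, so the group and what they stand for cannot be told apart in full.

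Genes beside the targeted loci were read separately, since alleles linked to them can differ between the groups. Within 10 Mb of Nmnat2, 80 other genes were tested, of which 0 were called and 18 (22.5%, against 19.8% of all genes) had an unadjusted p under 0.05. There 1 gene, Astn1, an adhesion protein of migrating neurons, did not overlap (1.25%, against 2.19% of all genes). It had 266, 289, 316 and 313 CPM in cKOA and 264, 289, 285 and 320.0 CPM in cKOB, against 337, 338, 403 and 335 CPM in Ctrl-2. Fmo1, a flavin monooxygenase with the smallest p there, had a log2 fold change of -0.40 and overlapped. Within 10 Mb of Sarm1 (Entrez 237868, chromosome 11, 78472330 to 78497754), 314 genes were tested between cKOA and cKOB, which differ in Sarm1 genotype, and 0 were called, with 57 (18.2%) at an unadjusted p under 0.05 against 18.3% of all genes. Ccl3 lies in that window, and so does the related chemokine gene Ccl6. Without regard to position, chromosome 17 had 27 of its 707 genes with no overlap in the pooled comparison (3.82%, against 2.19% of all genes). That was the highest share of any chromosome, and chromosome 13 had 3.42%. Chromosome 17 holds the MHC genes. Of 12 MHC class I genes 1 did not overlap and 11 were higher at an unadjusted p under 0.05 (12.2% of all genes were). Of 6 class II genes 0 did not overlap. The part of these genes in the share of the chromosome was not tested.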

How the data were processed

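RNA of ACSA-2 sorted cortical astrocytes was sequenced in 12 libraries. The authors deposited raw read counts per gene, which were the only values used here. They also deposited log2 CPM per library and, for their own comparisons, log2 and signed fold changes with p-values. The submitters' processing notes name STAR 2.7.10a, featureCounts (Subread 2.0.3), FastQC 0.11.5, edgeR 4.2.1 and the build mm10. Their annotation and strand setting were not given in the sources used here, so reads of overlapping or antisense genes may not be separated. Library totals ran from 16506627 to 22159404 counts. Per the file headers, gene positions are those deposited, and 14365 of 15089 genes matched a RefSeq chromosome.

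Counts were analysed with edgeR 4.0.16 (R 4.3.3, limma 3.58.1). filterByExpr removed 0 genes, TMM scaled the libraries, and 1 quasi-likelihood model of 3 groups was fitted to 12 libraries (9 residual degrees of freedom, prior 3.78). The contrasts were the mean of cKOA and cKOB minus Ctrl-2, each mutant minus Ctrl-2 and cKOA minus cKOB, two-sided, with Benjamini-Hochberg adjustment over 15089 genes and a threshold of 0.05. By the study's methods, libraries come from separate mice. On simulated counts, the test recovered 90% of 100 genes changed by a log2 of 1, with 9 false calls. Those counts were drawn independently and held no shifts of whole libraries, so the check does not cover such shifts. Alternatives were other normalizations, filters, tests (DESeq2 1.42.0, limma-voom), covariates, and each library left out. Covariates for immediate early genes, the split by Xist, the libraries left out in the count of non-overlapping genes, and cKOA replicate 14 left out together with Xist as a covariate were chosen after seeing the data.

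The comparison and the gene lists were chosen with earlier results of these data known. By the naming rule, Nmnat2, Sarm1, Xist and at most 4 genes of each list, those of smallest pooled p, may be named. The rule's other parts ask for called genes and name none, so the remaining genes were chosen after their values were seen. A few results are left out and not reported here. Plots used Python 3.11.15 with matplotlib 3.10.9.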

Additional observations from a re-analysis of the deposited data

Results flagged for a closer look

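In the genes named above, 213 groups of 4 libraries were looked at for a library far from the other 3, and 17 were found, where chance gives about 1 in 20. In cKOA, replicate 14 stood apart in Nmnat2 (29.4 CPM), Rogdi (40.4 CPM), Tbx18 (8.83 CPM) and Gjb2 (36.9 CPM), replicate 8 in Bmpr1a (106 CPM) and replicate 9 in Fmo1 (59.7 CPM). Rogdi encodes a leucine zipper protein and was above Ctrl-2 in all 8 mutant libraries. In cKOB, replicate 18 stood apart in Ptprz1 (2246 CPM) and Ednra (34.2 CPM), in both nearest to Ctrl-2. In Ctrl-2, replicate 4 stood apart in Sik1 (57.1 CPM), Hspa1a (133 CPM), Hapln1 (229 CPM) and Col4a5 (54.0 CPM), replicate 5 in Csrnp1 (24.0 CPM) and Cdh2 (285 CPM), replicate 6 in Astn1 (403 CPM), and replicate 7 in Fstl1 (131 CPM) and Xist (1385 CPM), the last as the sole Ctrl-2 library with Xist.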

How the results depend on the processing

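No paired analysis was possible because each replicate number belongs to 1 library and no number is shared between the groups. The pooled comparison called 0 genes under RLE scaling, without Rn45s, without a filter, at a mean of at least 1 CPM, with the 8 mutants as 1 group, with limma-voom, a robust fit or a minimum fold of 1.2, with each covariate (Xist, microglia, oligodendrocyte or immediate early genes) and in the libraries with Xist alone. It called 14 higher and 10 lower under upper-quartile scaling, 621 and 206 by the likelihood ratio test, 734 and 332 by DESeq2, 2 and 0 in the libraries without Xist, and 128 and 30 with cKOA 14 left out and Xist as a covariate (the joint setting). Genes both called and of like size numbered 12 higher and 8 lower under upper-quartile scaling and 279 and 171 by the likelihood ratio test. They numbered 319 and 278 by DESeq2 and 23 and 25 in the joint setting. The main fit called no gene, so this count was 0 there whatever the ratio, at 2/3 and 1/3 as well. The fit of 1 mutant group and the libraries split by Xist give no value for like size or between the mutants. Between the mutants, 303 and 173 were called by the likelihood ratio test, 396 and 229 by DESeq2 and 385 and 213 in the joint setting. Leaving out 1 library gave 0 to 876 higher and 0 to 358 lower (pooled), and 0 to 253 and 0 to 207 both called and of like size. It gave 0 to 865 and 0 to 812 between the mutants, and 146 to 493 and 214 to 356 genes that did not overlap. Under upper-quartile scaling 310 genes were lower without overlap. Nmnat2 passed by the likelihood ratio test (-0.56) and DESeq2 (-0.56), and its log2 fold change ran from -0.67 to -0.48 with a library left out, passing without cKOA replicate 14, and was -0.18 in the libraries without Xist and -0.93 in those with it. Sarm1 changed sign in the libraries with Xist (0.42) and with cKOA 14 left out and Xist as a covariate (0.068), and Xist among the libraries that express it (-0.24). The libraries with Xist hold 1 Ctrl-2 library, replicate 7, so fold changes within them rest on it. Of 41 list medians, 22 moved by more than the spread between libraries in those without Xist, 16 in those with Xist, 16 with the early genes and 14 with the microglia markers as a covariate. The causes were not tested. Genes near 1 CPM, such as Tfap2b, rest on few counts.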

Other observations

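Lists not described above were mostly near 0 in the pooled comparison or differed between the mutants. Each count of higher or lower genes here is at an unadjusted p under 0.05. In the pooled comparison 12.2% of all genes were higher and 7.67% lower by that measure. Between the mutants 9.17% had cKOA above cKOB and 9.11% had cKOA below it. The quasi-likelihood test called 0 genes of any list. Among 20 reactive astrocyte genes, 4 were higher and 3 lower, with a median log2 fold change of 0.02 (0.23 in cKOA and -0.07 in cKOB). Genes of NAD metabolism, the pathway in which NMNAT2 works, numbered 22, of which 3 were higher and 3 lower, Nmnat2 among the lower (median 0.03). Of 20 p53 target genes, which include Pmaip1 and Cdkn1a, 7 were higher and 4 lower, so those members do not stand for their list (median 0.00).

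Cell division genes lay below 0 in 23 of 24, with 9 lower, and 5 of the 24 were lower in cKOA than in cKOB (median -0.28, -0.41 in cKOA and -0.14 in cKOB), and in the libraries without Xist the median was 0.02. Lysosome genes lay above 0 in 19 of 20, with 11 higher, and 16 were higher in cKOA than in cKOB (median 0.26, 0.48 in cKOA and 0.08 in cKOB, and -0.03 in the libraries without Xist). Border macrophage markers ran against the other microglia and macrophage markers, with a median of -0.66 over 9 genes (-1.04 in cKOA and -0.12 in cKOB), 3 lower and 1 higher, but -0.03 in the libraries without Xist. Nuclear genes of the respiratory chain lay below 0 in 22 of 25 by small amounts (median -0.06), and 20 glycolysis genes had a median of 0.08 with 3 higher. Of 18 genes of the integrated stress and unfolded protein responses 7 were higher and 2 lower (median 0.10), while 20 NRF2 antioxidant genes had 2 higher and 2 lower (median 0.00).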
